A study of Homo sapiens with 24 samples.

Results

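Intron-only H3K27ac regions are stretches of chromatin, narrower than 3000 bp, that lie inside the introns of annotated genes and touch neither an exon nor a promoter in the annotation deposited with them. They were taken from the direct comparison of shANCO1 with shCTRL cells in each of 2 human mammary epithelial lines, by keeping every tested region under the width limit whose annotation named at least 1 gene and only introns. The rule selected 23592 of 95074 regions, 13211 of 50284 in 10A and 10381 of 44790 in DCIS, and used no measured change. The series held 24 libraries in 8 groups of 3, with an H3K27ac immunoprecipitation and an input group for each hairpin in each line. 10A (MCF10A) is an immortalized, non-tumorigenic line, and DCIS (MCFDCIS) is a derivative of its lineage that models ductal carcinoma in situ. The shANCO1 cells carried a lentiviral hairpin against ANCO1, the product of ANKRD11, and the shCTRL cells carried a control hairpin against GFP, a sequence that the cells do not have. Both were puromycin-selected pools of infected cells grown in the same medium, and a single ANCO1 hairpin, shANCO1 #3, was used for chromatin. Each table held 1 log2 fold change and 1 FDR per region, from csaw over all 3 libraries of a group, so the value of each library, the depth behind a region and the spread between replicates were unknown.

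Acetylation of histone H3 on lysine 27 marks active promoters and active enhancers, and a large share of the enhancers of epithelial cells lies in introns, either of the gene they act on or of a neighbour. Acetyl groups are placed by coactivators such as p300 and removed by histone deacetylases, which corepressor proteins bring to chromatin, and ANCO1 has been described as such a cofactor of nuclear receptor coactivators. Intronic enhancers of mammary epithelial cells are known for binding sites of AP-1 (dimers of FOS and JUN proteins), TEAD, RUNX and GRHL factors.

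Sequences from 5 regions, picked by the size of their change or by their gene, are shown first. Each sequence is the central 200 bp of 1 region, read from the plus strand of GRCh38 from 5′ to 3′, and capitals mark a match to the TEAD sequence GGAATG or the AP-1 sequence TGACTCA on either strand. Gains and losses are ranked here among regions of at least 5 windows, the overlapping stretches that csaw tested. The first sequence belonged to the 10A region with the largest gain (chr4:28374751-28374950), the second to the DCIS region with the largest gain, in the first intron of ADAMTSL1 (chr9:18490701-18490900), and the third to the DCIS region with the largest loss, in LOC105375977 (chr9:13607901-13608100). The fourth lay in CUBN (chr10:17062751-17062950) and rose in both lines. The fifth (chr16:89442701-89442900) came from a region annotated to introns of LOC101927817 and of ANKRD11, the gene targeted by the hairpin. That region also touched a GENCODE exon.
LOC105374556 and LOC107986268, 10A up: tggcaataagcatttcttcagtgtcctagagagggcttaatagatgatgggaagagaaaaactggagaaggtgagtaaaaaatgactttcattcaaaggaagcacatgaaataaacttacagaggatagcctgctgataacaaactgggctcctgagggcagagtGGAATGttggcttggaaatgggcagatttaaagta
ADAMTSL1, DCIS up: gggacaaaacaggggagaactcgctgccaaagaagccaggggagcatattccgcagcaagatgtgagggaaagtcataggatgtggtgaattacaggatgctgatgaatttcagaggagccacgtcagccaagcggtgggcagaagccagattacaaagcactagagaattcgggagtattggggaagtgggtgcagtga
LOC105375977, DCIS down: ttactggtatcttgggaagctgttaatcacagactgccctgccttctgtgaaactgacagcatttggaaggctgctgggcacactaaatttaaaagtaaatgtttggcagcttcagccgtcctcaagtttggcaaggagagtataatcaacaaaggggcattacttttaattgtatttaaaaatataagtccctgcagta
CUBN, up in both lines: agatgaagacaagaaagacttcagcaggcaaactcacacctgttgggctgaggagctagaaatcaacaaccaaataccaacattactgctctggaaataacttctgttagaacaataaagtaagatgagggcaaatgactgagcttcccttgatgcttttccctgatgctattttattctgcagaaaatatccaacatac
ANKRD11, DCIS up: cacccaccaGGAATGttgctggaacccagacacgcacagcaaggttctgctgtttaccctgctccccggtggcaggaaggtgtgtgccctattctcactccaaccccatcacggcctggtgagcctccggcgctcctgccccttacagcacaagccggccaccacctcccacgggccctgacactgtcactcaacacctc

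None of these 5 stretches held the AP-1 sequence, and 2 of them held 1 TEAD match. The AP-1 sites of 4 of the named regions that rose and held the sequence in their central 500 bp are printed with 12 bases on each side, since AP-1 was the motif whose frequency differed most between regions that rose and the other members (described with the motif counts). The MXD1 site lay at chr2:69934512-69934542, the COL8A1 site at chr3:99751847-99751877, the LOC105374002 site at chr3:98923708-98923738 and the 2 NRG2 sites at chr5:139985827-139985857 and chr5:139985913-139985943. Capitals mark the AP-1 match.
MXD1, 10A up: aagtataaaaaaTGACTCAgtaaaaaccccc
COL8A1, DCIS up: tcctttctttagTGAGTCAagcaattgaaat
LOC105374002, DCIS up: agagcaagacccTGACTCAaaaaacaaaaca
NRG2 site 1, 10A up: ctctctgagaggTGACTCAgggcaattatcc
NRG2 site 2, 10A up: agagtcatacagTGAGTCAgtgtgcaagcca

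In 10A, 4155 of the 13211 intron-only regions rose after ANCO1 knockdown (31.5%, FDR under 0.05) and 35 fell (0.265%), while 43.6% of all tested regions rose and 0.225% fell. In DCIS, 3139 of the 10381 intron-only regions rose (30.2%) and 536 fell (5.16%), against 23.6% and 4.86% of all regions. The share of intron-only regions that rose was thus below the background in 10A and above it in DCIS, although the shares themselves were close, and the share that fell was near the background in both lines. All classes rose less often in DCIS than in 10A, the intron-only regions only slightly. Regions with a promoter entry rose in 50.8% of cases in 10A and 16.3% in DCIS, exonic regions without one in 46.4% and 35.8%, and regions with no gene entry in 39.2% and 31.6%. The 95% Wilson intervals for the intron-only shares ran from 30.66% to 32.25% in 10A and from 29.36% to 31.13% in DCIS. They cover counting error only, since regions are not replicates.

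**Figure D1:**
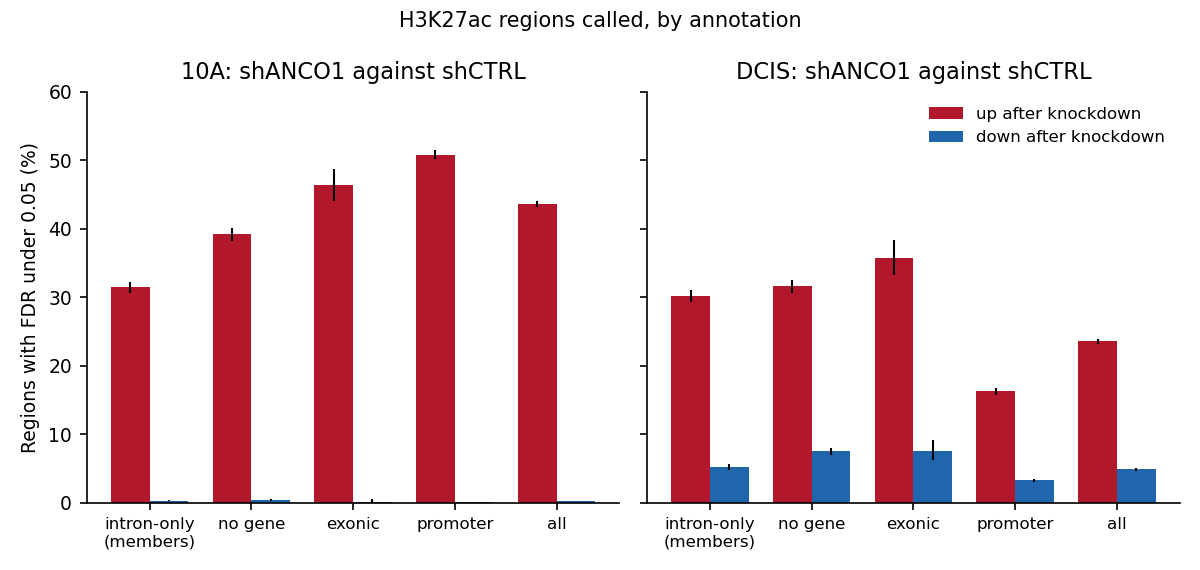
Percentage of regions with FDR under 0.05 that were up (red) or down (blue) in shANCO1 against shCTRL cells, by annotation, with 95% Wilson intervals for counting error. Intron-only regions rose in 31.5% of cases in 10A and 30.2% in DCIS, while promoter regions went from 50.8% to 16.3%. The close intron-only shares did not hold within bands of width.

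The zero of these fold changes depends on a normalization that is not given in the sources used here, and most regions of both tables had values above it. The median log2 fold change over all regions was 0.76 in 10A and 0.52 in DCIS, and that of intron-only regions was 0.68 and 0.74. Of the intron-only regions, 88.4% in 10A and 71.3% in DCIS had a positive value. Calls were then also required to differ from the median of their own table by 1 log2 unit or more. In 10A this left 165 intron-only gains and 35 losses, so the upward share of the called regions went from 99.2% to 82.5%. In DCIS it left 2286 gains and 536 losses, or 81% against 85.4%. The rule could remove only gains, since the losses reached at most -0.83 in 10A and -1.03 in DCIS. Regions below the median that had not been called as losses could not enter. These shares therefore do not show how gains and losses would divide around the median, which was not tested. By the medians given above, the median intron-only region lay below the median of its table in 10A and above it in DCIS.

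Intron-only regions were narrow. Their median width was 600 bp in 10A and 500 bp in DCIS, against 1000 and 900 bp over all regions, and together they covered 11.92 and 8.71 megabases. The share that rose grew with width in 10A, from 16.4% of 3159 regions of 200 to 300 bp to 61.7% of 1440 regions of 2000 to 2900 bp. In DCIS it went from 26.3% of 2944 to 35% of 1091 over the same widths. The close shares of the lines thus combined a higher share in DCIS among narrow regions with a lower one among wide regions. Weighted to the widths of the intron-only regions, 35.3% of all regions would have risen in 10A and 22.8% in DCIS, against 31.5% and 30.2% of the intron-only regions themselves, so the order seen above did not turn when widths were matched. Regions with no gene entry came to 35.1% and 30.8% on that weighting, and promoter regions to 37.5% and 15%.

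**Figure D2:**
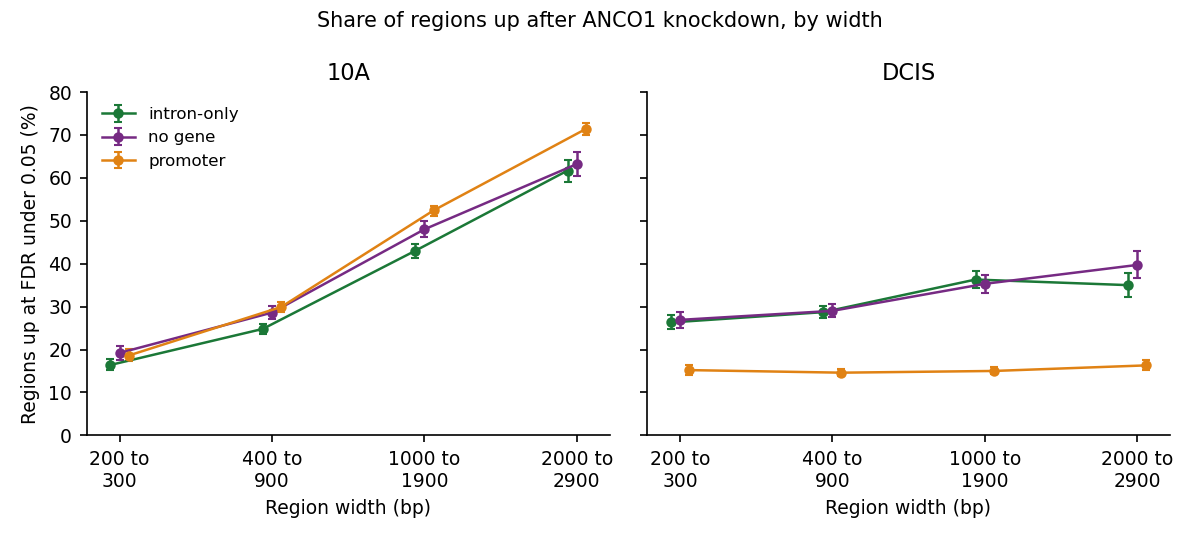
Percentage of regions up at FDR under 0.05, by region width in bp, for intron-only regions, regions with no gene entry and regions with a promoter entry, with 95% Wilson intervals for counting error. In 10A all classes climbed with width (intron-only 16.4% to 61.7%), while in DCIS promoter regions stayed between 14.6% and 16.3% and intron-only regions between 26.3% and 36.3%.

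The regions that rose did so more steeply in DCIS than in 10A. The median log2 fold change of the risen intron-only regions was 1.14 in 10A (quartiles 0.99 and 1.33) and 1.80 in DCIS (1.51 and 2.28). Those that fell had medians of -1.10 and -1.81. Every window was up in 1304 of the 4155 risen regions in 10A (31.4%) and in 1972 of the 3139 in DCIS (62.8%). A window in the opposite direction was present in 3 and 5 of the risen regions. The risen regions had median widths of 1100 bp in 10A and 600 bp in DCIS. A narrow region has fewer windows to agree, and the part of width in these shares was not tested. The 2 tables were normalized separately, and the difference in size between the lines was not tested.

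Among regions of at least 5 windows, the largest gain in 10A was in an intron shared by the uncharacterized transcripts LOC105374556 and LOC107986268 (chr4:28374501-28375200), with a log2 fold change of 2.75 and 6 of 6 windows up. It lay 1513660 bp from the nearest protein-coding TSS and overlapped a region enriched over input in shANCO1 cells but none in shCTRL cells. PIGN, an enzyme of GPI-anchor synthesis, followed with 2.66 and 12 of 12 windows (FDR = 5.65e-07). MXD1, a partner of MAX that opposes MYC, gained 2.50 in the third of its 5 introns with 17 of 17 windows (FDR = 6e-07), in a region enriched over input in both groups. DNER, a transmembrane protein of the Notch family, gained 2.43 in the first of its 12 introns over 24 of 24 windows (FDR = 6.35e-11). UPK2, a uroplakin of the urothelial plaque, gained 2.39, in a region that overlapped no enrichment over input in either group. All 5 were up in every window.

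The losses in 10A were few and small. Among regions of at least 5 windows, LOC100996671 had the largest, a log2 fold change of -1.30 with 4 of 6 windows down (FDR = 0.00469), followed by SPIDR, a scaffold of homologous recombination, with -1.26 (FDR = 0.0224). RNF165, a ubiquitin ligase, had -1.25, UNC5B, a netrin receptor, had -1.24 and RXFP1, the relaxin receptor, had -1.20. In UNC5B and RXFP1 a single window was down, in each. All 35 values lay between -1.65 and -0.83.

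In DCIS the largest gain was in the first of the 28 introns of ADAMTSL1, a secreted matrix glycoprotein (chr9:18489901-18491700), with a log2 fold change of 7.80 and 17 of 17 windows up (FDR = 1.49e-18). The sequence shown above comes from this region, which lay 15668 bp from the nearest protein-coding TSS and was enriched over input in shANCO1 cells only. An intron shared by MSRB3-AS1 and LOC105369806 gained 5.14 (FDR = 2.94e-09). COL8A1, a chain of the short-chain collagen VIII, gained 5.10 in the second of its 3 introns with 12 of 12 windows up (FDR = 3.46e-09). MICAL2, a monooxygenase that disassembles actin filaments, gained 4.87 in the third of its 27 introns (FDR = 6.83e-12), and the uncharacterized LOC105374002 gained 4.77 (FDR = 3.42e-21). Fold changes of this size depend on the prior count of the fit, which is not given, so their size is less certain than their direction.

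The losses in DCIS were larger and more numerous than in 10A. LOC105375977 held a pair of the 5 largest among regions of at least 5 windows, with -4.74 over 15 of 15 windows (chr9:13607201-13608800, FDR = 2.8e-07) and -3.72 over 7 of 7 windows. LOC105377043 had -3.96 (FDR = 7.73e-09), CCDC192 had -3.88 in the fifth of its 6 introns (FDR = 6.62e-11) and LOC102724080 had -3.87 (FDR = 3.57e-06). All 5 overlapped regions enriched over input in shCTRL cells and none in shANCO1 cells. The single lowest value, -6.53 in MACROD2, came from a region of 1 window.

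Gains and losses were set beside the separate comparison of each group with input, which shares libraries with the direct comparison and is therefore not independent of it. In 10A, 2164 of the 4155 risen regions (52.1%) overlapped a region enriched in shANCO1 cells, against 16.8% of the regions that did not change and 70% of the risen regions of the whole table. A region enriched in shCTRL cells was overlapped by 690 of the 4155 (16.6%), against 34.6% of the risen regions of the whole table. Of the 2296 intron-only regions enriched in shANCO1 cells only, 64.5% rose, and of the 1385 enriched in both groups 49.3% rose. Over all regions of 10A, 7786 of the 11315 enriched in shANCO1 cells only rose, as did 7560 of the 11420 enriched in both groups. Of the 156 intron-only regions enriched in shCTRL cells only, 7 rose and 10 fell. Over all regions of 10A, 13 of the 381 enriched in shCTRL cells only rose and 25 fell. In DCIS, 772 of the 3139 risen regions (24.6%) overlapped shANCO1 enrichment, against 38.4% of the risen regions of the whole table. Of the 775 intron-only regions enriched in shANCO1 cells only, 635 rose (81.9%) and none fell. Of the 501 enriched in shCTRL cells only, 193 fell (38.5%) and 3 rose. Over all regions of DCIS, 2586 of the 3923 enriched in shANCO1 cells only rose, and 730 of the 2420 enriched in shCTRL cells only fell. Most intron-only regions, 71% in 10A and 82.3% in DCIS, overlapped no region enriched over input in either group, as did 54% and 64.3% of all regions. These intron-only regions held 47.7% of the intron-only gains in 10A and 75.3% of those in DCIS, with median widths of 500 and 400 bp. Over all regions, those without such overlap held 29.9% and 61.5% of the gains. The window filter of the comparisons with input is not given, so whether regions without overlap carried some acetylation was unknown.

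Intron-only regions lay away from promoters by construction, since the rule left out every region with a promoter entry. The median distance to the nearest protein-coding TSS was 43253 bp in 10A and 43489 bp in DCIS, shorter than the 60021 and 61010 bp of regions with no gene entry. A protein-coding TSS lay within 1 kb of 20 and 8 of them, and a GENCODE exon of any kind, absent from the deposited annotation, was touched by 329 (2.49%) and 264 (2.54%). The share that rose hardly varied with distance: between 5 kb and more than 100 kb it stayed from 30.8% to 32.1% in 10A and from 27.3% to 31% in DCIS. Losses in DCIS did vary, from 3.9% at 5 to 10 kb to 7.65% beyond 100 kb. Regions with no gene entry also fell more often far away, in 6.19% and 9.26% of cases in the same bands. Of the regions that could be placed in an intron of the canonical transcript, 9748 in 10A and 7557 in DCIS, 35.6% and 36% lay in the first intron. Regions in the first intron rose in 30% and 27.6% of cases, those in the second in 29.4% and 30.7%, and those further along in 31% and 30.9%.

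The annotation named 4867 host genes in 10A and 4113 in DCIS, and 91.3% and 91.2% of the regions named 1 gene. Among these, protein-coding genes held 82.8% of the regions in 10A, of which 31.1% rose, and long non-coding RNA genes held 14.8%, of which 33.7% rose. In DCIS the corresponding values were 29.7% and 32.8%. Losses in DCIS were 7.79% of the 1592 regions in long non-coding genes and 4.63% of the 7681 in protein-coding genes. Biotypes came from RefSeq, and 173 and 98 regions had a host symbol that did not match.

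Within a host gene, the regions that changed mostly changed the same way. In 10A, 387 genes had at least 3 changed regions, and in 381 of these every changed region rose. In DCIS, 335 genes had at least 3, of which 246 had only gains, 25 only losses and 64 both. Since 85.4% of the changed regions in DCIS and 99.2% in 10A were gains, a majority of gene-wide gains follows from the counts, and neighbouring regions share a locus and are not independent.

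In DCIS the host with most gains was SPOCK1, a secreted proteoglycan of the testican family. Of its 14 regions 13 rose, with log2 fold changes from 1.45 to 3.91, and the remaining value was -0.07. In 10A the same gene had 22 regions, of which 9 rose, with the highest value at 2.07. NRG1, the ErbB ligand neuregulin 1, had 13 regions in DCIS of which 11 rose, with a median of 2.19 and a highest value of 3.51. In 10A, 9 of its 35 regions rose and 1 fell. APBB2, an adaptor that binds the amyloid precursor protein, had 9 gains and 1 loss among 12 regions, and the antisense transcript SLC38A4-AS1 had 11 gains among 20.

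The hosts with most gains in 10A were LOC105369844 (14 of 21 regions), PVT1, the long non-coding RNA beside MYC (12 of 64), BCAR3, an adaptor of integrin signalling (11 of 28), and DNER and NAV2, a neuron navigator protein (10 of 20 and 10 of 31). No region of these 5 genes fell in 10A. This ranking is by number of gains, and 31.5% of all intron-only regions rose in 10A. Among regions naming 1 gene, PVT1 hosted the most, and its median was 0.56 against 0.68 over all intron-only regions. In DCIS BCAR3 had 4 gains and 1 loss among 19 regions, with a median of -0.04, against 0.77 in 10A. No host in 10A had more than 2 losses. LINC01592 had 2 of 6, and ATP8B4, BCAS4, BICDL1 and CARMAL, the next by symbol, had 1 each.

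The 536 losses in DCIS were spread over 391 host genes, counting every gene named, and the hosts with most losses held 6 to 8 each. GPM6B, a membrane glycoprotein of the proteolipid family, had 11 regions, all with negative values, of which 8 fell, from -3.63 to -1.69. In 10A it had 3 regions, at 0.24, 0.59 and 0.93, of which the last rose. SH3PXD2B, the podosome adaptor TKS4, had 6 losses and 1 gain among 10 regions in DCIS, with a median of -1.45. All 4 of its regions in 10A rose, with values from 0.86 to 1.29 (FDR from 0.0145 to 0.0449). The median over all regions of 10A was itself 0.76. MACROD2, an ADP-ribosyl hydrolase encoded by a very long gene, had 7 losses and 4 gains among 26 regions in DCIS, and 1 loss and 6 gains among 38 in 10A. LOC101928004 had 6 losses among 10 regions, and LOC101928269 had 10 gains and 6 losses among 26, so that it stood among the hosts with most changes in both directions. The difference between the lines at these genes was not tested.

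**Figure D3:**
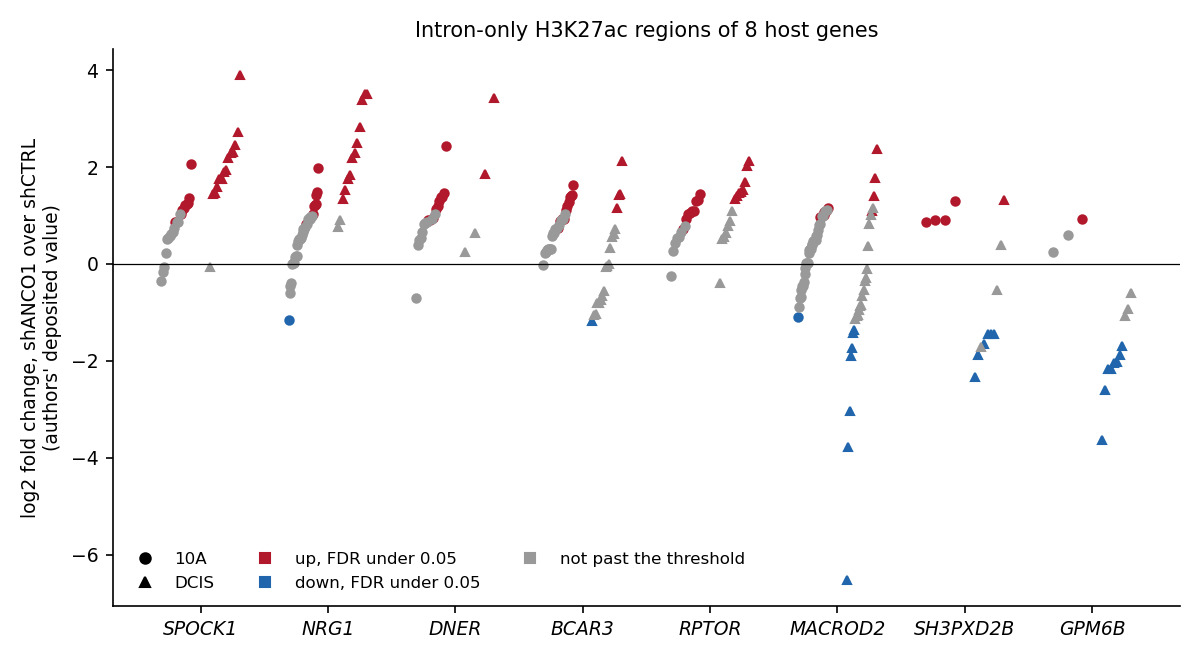
Deposited log2 fold change of every intron-only region whose annotation named only the gene given, for 8 genes, in 10A (circles) and DCIS (triangles), coloured by call at FDR under 0.05. SPOCK1 and NRG1 regions rose in DCIS up to 3.91 and 3.51, GPM6B regions fell there to -3.63, and SH3PXD2B regions rose in 10A and mostly fell in DCIS. The median over all regions was 0.76 in 10A and 0.52 in DCIS.

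Changes inside a gene were compared with those at its own promoter, using regions of the same table that carried a promoter entry for the host. A host could have several promoter regions, and any of them that rose or fell was counted. These shares are therefore not comparable with the shares per promoter region given above. In 10A, 10205 regions had such a host, and a promoter region of the host rose for 79.9% of them. The share was 82.5% for the risen intron-only regions and 78.8% for those that did not change, so it was nearly as high beside regions that did not change. In DCIS a promoter region rose for 45.8% of the 2312 risen regions with such a host, for 34.3% of the 5166 that did not change and for 19.4% of the 355 that fell. A promoter region fell for 34.9% of the fallen regions, 12.2% of those that did not change and 6.23% of the risen regions. Over all 7833 regions of DCIS with such a host, a promoter region rose for 37% and fell for 11.5%. For 50.1% of the risen regions in DCIS no promoter region of the host changed in either direction. Across regions, the Spearman rank correlation of the intronic value with the median promoter value of the host was 0.11 in 10A (n = 10205) and 0.29 in DCIS (n = 7833). These regions share libraries and host genes, and the values are given as a description.

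The tested regions of the lines overlapped in part. Of the 13211 regions in 10A, 5259 (39.8%) overlapped any region tested in DCIS, and of the 10381 in DCIS, 5940 (57.2%) overlapped one tested in 10A. Over all regions these shares were 58.2% and 69.5%, and over regions with no gene entry 47.9% and 56.5%. Gains in DCIS were concentrated where 10A also had a tested region: 43.1% of those 5940 rose and 1.94% fell, against 13.1% and 9.48% of the 4441 with no counterpart. Regions with no gene entry that had a counterpart rose in 45.3% of cases in DCIS, and all regions with one in 28.4%. These 2 sets differed in median width, 700 and 400 bp, and the part of width was not tested. In 10A the corresponding shares that rose were 35.1% and 29.1%. In all, 813 risen regions of 10A (19.6%) overlapped a risen intron-only region of DCIS, and 850 risen regions of DCIS (27.1%) overlapped one of 10A. The corresponding shares over all regions were not counted, so these 2 shares cannot be called particular to introns. When each region of 10A was paired with the DCIS region sharing most bases, 4520 pairs were intron-only in both lines. Of the 10A gains in these pairs, 797 rose in DCIS (49.8%), 28 fell (1.75%) and 775 did not change. Of the 10A regions that did not change, 35.1% rose and 2.27% fell. The Spearman correlation of the 2 fold changes over the 4520 pairs was 0.16 (Pearson 0.16), given as a description.

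**Figure D4:**
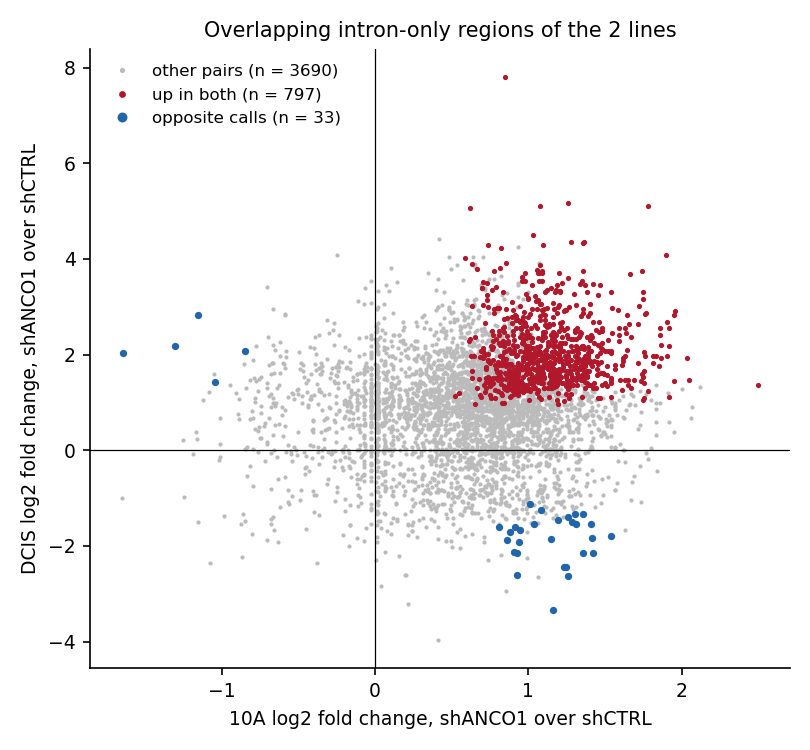
Deposited log2 fold change in 10A (x axis) and DCIS (y axis) of 4520 pairs of overlapping intron-only regions, with pairs up in both lines in red and pairs called in opposite directions in blue. The 797 pairs up in both lie mostly between 1 and 4 on the DCIS axis, and 28 pairs rose in 10A and fell in DCIS.

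The pairs with the largest gain in both lines included matrix, ligand and receptor genes. CUBN, the endocytic receptor for the intrinsic factor and vitamin B12 complex, gained 1.95 in 10A (chr10:17061501-17064100, FDR = 5.98e-06) and 2.91 in DCIS (chr10:17062501-17063200, FDR = 2.98e-07) in its 22nd intron. There, 9 of 24 windows were up in 10A and 6 of 6 in DCIS. LOC254896 gained 1.90 and 1.97. NRG2, a second neuregulin, gained 1.86 and 2.56 in its first intron, where the wider 10A region (chr5:139984801-139986900) holds both AP-1 sites shown above and the DCIS region (chr5:139985201-139985800) ends before them. COL8A1 gained 1.78 in 10A and 5.10 in DCIS, and in 10A the region was enriched over input in both groups. By gene, 2641 hosts had intron-only regions in both lines, of which 976 had a gain in both, 577 in 10A only, 477 in DCIS only and 611 in neither.

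ANKRD11, the gene that encodes ANCO1 and the target of the hairpin, hosted 11 intron-only regions in 10A and 5 in DCIS. In 10A the lowest value was -0.24, and 1 region rose, with 1 of its 6 windows up. It lay in the first of the 12 introns (chr16:89476701-89477400, log2 fold change 1.325, FDR = 0.00745). The corresponding region of DCIS (chr16:89476601-89477500) rose by more, with 2.11 and 7 of 8 windows up (FDR = 0.000489). A further 2 regions of DCIS rose, at chr16:89442201-89443400 (1.88, FDR = 2.62e-05), which LOC101927817 also hosts, and at chr16:89457901-89459400 (1.80, FDR = 0.000952). Both of them touched a GENCODE exon. The other 2 regions of DCIS, which did not change, had values of -0.22 and 0.38. A hairpin acts on the transcript, so these values are no check of the knockdown, and none of the tables measures ANCO1 itself.

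Gene groups were followed through the intron-only regions they host. The study discusses several of these pathways on the same libraries, so the groups are no independent evidence. Of 26 Hippo and YAP-TEAD genes, 15 hosted 83 regions in 10A, of which 27 rose (32.5%) and none fell, and 14 hosted 80 regions in DCIS, of which 29 rose (36.2%) and 1 fell. Their median log2 fold changes were 0.75 and 1.04, beside 0.68 and 0.74 over all intron-only regions. In DCIS all 5 regions of AMOTL1, an angiomotin that holds YAP at junctions, rose, the one with the lowest FDR by 3.92 with 25 of 25 windows up (FDR = 1.54e-09). STK3, the Hippo kinase MST2, had 5 gains among 7 regions, with 4.41 at the lowest FDR, and WWTR1, the coactivator TAZ, 5 among 12. In 10A the genes with the lowest FDR were STK3 (1.70), TEAD1, a DNA-binding partner of YAP (1.74), YAP1 itself (1.10, FDR = 0.00105, 6 of 20 windows up) and the phosphatase PTPN14 (1.62), of which 5 of 9 regions rose.

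Focal adhesion and hemidesmosome genes hosted 138 regions in 10A, of which 38 rose (27.5%), and 96 in DCIS, of which 33 rose (34.4%) and 1 fell, beside 31.5% and 30.2% of all intron-only regions. The medians were 0.70 and 1.01. LPP, a zyxin-family protein of adhesions, gained 1.83 in 10A, with 5 gains among 21 regions. DST, the hemidesmosomal plakin dystonin, had 6 gains among 20 regions in 10A and 5 among 16 in DCIS. ITGA6, an integrin subunit of hemidesmosomes, had 3 gains among 4 in 10A. TLN2, a talin, gained 2.47 in DCIS (FDR = 2.48e-07). PARVA, which links integrin-linked kinase to actin, carried the loss, -3.10 in its first intron (FDR = 2.28e-05).

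PI3K-AKT-mTOR genes hosted 92 regions in 10A, of which 27 rose (29.3%), and 66 in DCIS, of which 21 rose (31.8%) and 2 fell, close to the shares of all intron-only regions, with medians of 0.69 and 0.83. RPTOR, the defining subunit of mTORC1, stood out by number, with 9 gains among 16 regions in 10A and 8 among 15 in DCIS, from 0.73 to 1.44 and from 1.33 to 2.13. EGFR had 7 gains among 15 and 3 among 12. INPP4B, a phosphatase of the pathway, gained 1.38 in 10A and 2.35 in DCIS, and all 3 regions of the receptor MET rose in DCIS. TGF-beta and EMT genes differed between the lines by count, with 16 of 56 regions up in 10A (28.6%) and 4 of 44 in DCIS (9.09%). The median in DCIS was -0.03, against 0.74 over all intron-only regions. SMAD3, a TGF-beta signal transducer, had 3 gains among 8 regions in 10A and 1 among 5 in DCIS, and no region of the inhibitory SMAD6 among 10 rose or fell in DCIS (lowest FDR = 0.0516). The difference between the lines was not tested.

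In the 3 other groups the shares that rose were below those of all intron-only regions, except for senescence genes in DCIS. Senescence and cell cycle genes hosted 24 regions in 10A and 22 in DCIS, and 7 rose in each (29.2% and 31.8%), among them 3 and 5 of CDK6 and 4 and 1 of HMGA2, a chromatin protein of proliferating cells. Corepressor and coactivator genes hosted 52 and 38 regions, of which 12 (23.1%) and 7 (18.4%) rose. Both regions of the deacetylase HDAC4 rose in 10A. Basal and squamous transcription factors hosted 47 and 53, of which 14 (29.8%) and 7 (13.2%) rose. RUNX1, a regulator of mammary epithelial identity, held 9 of these gains in 10A, among 11 regions, with 1.95 at the lowest FDR and 15 of 15 windows up (FDR = 5.33e-06). In DCIS 3 of its 25 regions rose. TP63, which maintains basal epithelium, had 2 gains among 10 in 10A and 3 among 8 in DCIS, and GRHL3, an epidermal differentiation factor, had 2 losses among 5 in DCIS, one at -1.45 (FDR = 0.04).

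The AP-1 sequence TGACTCA, searched on both strands in the 500 bp at the midpoint, was present in 27.8% of the intron-only regions that rose in 10A, in 18.9% of those that did not change and in 18.3% of all regions of the table. In DCIS the shares were 26.3% of the risen, 17.9% of the unchanged and 9.89% of the fallen regions, and 15.4% of all regions. In 10A, 2 of the 35 fallen regions held it. Risen promoter regions held it in 14% of cases in 10A and 23% in DCIS, and risen regions with no gene entry in 29.2% and 27.6%, close to the intron-only regions. By size of change, the share in DCIS went from 10.9% of the 1029 regions with a log2 fold change under -1 to 13.5%, 19.9%, 25.4% and 26.7% over the 4 following units, and was 22.4% of the 254 regions above 3.

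The risen regions were wider than the unchanged ones, with medians of 1100 and 500 bp in 10A and 600 and 500 bp in DCIS, and wide regions held the sequence more often. Within each of the 4 width bands of both lines the share was nevertheless higher among the risen regions. For 1000 to 1900 bp it was 38.1% against 32.8% in 10A and 42.7% against 29% in DCIS, where 14% of the fallen regions held it. For 200 to 300 bp it was 18.3% against 14%, and 18.2% against 13.5%. The counting intervals of risen and unchanged regions overlapped in the widest band of both lines (31.5% against 28.2% in 10A, and 31.2% against 25.2% in DCIS) and in the narrowest band of 10A.

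The position of the AP-1 sequence also differed with width. In risen regions of 1000 bp and more it was densest in the centre, with 88.2 matches per 1000 regions and 100 bp within 200 bp of the midpoint in 10A and 97.4 in DCIS, falling to 48.1 and 49 at 200 to 500 bp. In risen regions of 200 to 900 bp the order was the opposite, with 32.2 and 39.2 in the centre and 76.3 and 80.2 at 200 to 500 bp, which lies at or beyond the edges of most of these regions. Unchanged regions showed the same order in both width classes. Fallen regions of 200 to 900 bp in DCIS were flat, with 17 in the centre, 17.6 at 200 to 500 bp and 17.4 beyond. Those of 1000 bp and more went from 27.9 in the centre to 24.8 and 20.7.

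**Figure D5:**
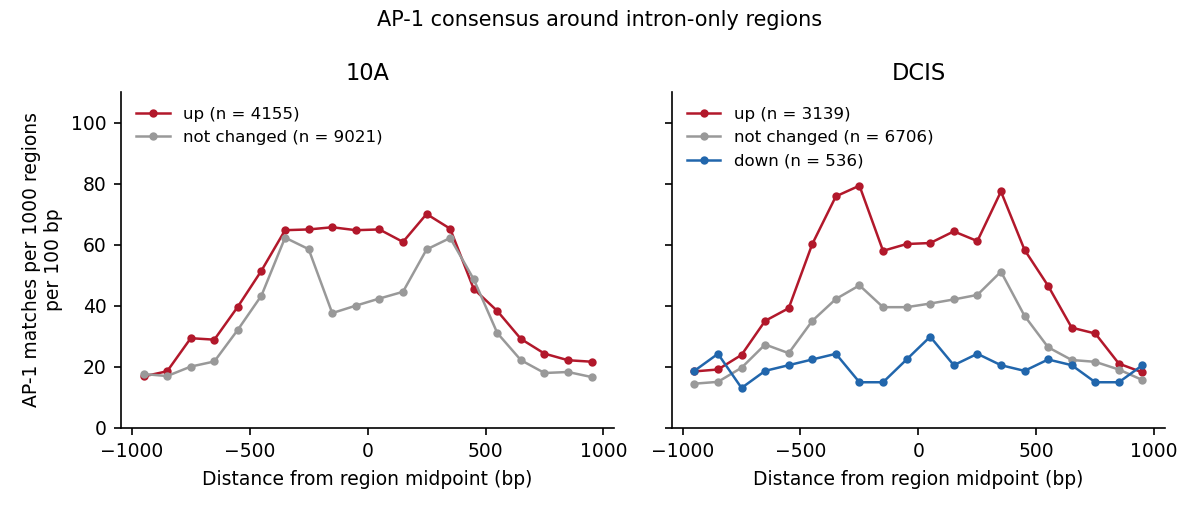
Matches to the AP-1 sequence per 1000 intron-only regions in bins of 100 bp, by distance in bp from the region midpoint, for regions that rose (red), did not change (grey) or fell (blue, DCIS only, since 35 regions fell in 10A). Risen regions of all widths together reached 70 in 10A and 79.3 in DCIS per bin, while fallen regions in DCIS stayed between 13.1 and 29.9.

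Other sequences separated the groups less. The TEAD sequence GGAATG was in 30.4% of the risen and 30% of the unchanged regions in 10A, and in 30.9%, 28.8% and 30.8% of the risen, unchanged and fallen regions in DCIS, with 27.9% and 27.1% of all regions of the tables holding it. The RUNX sequence TGTGGTT was in 12.5% against 11% in 10A and 12.9% against 10.3% in DCIS, with 9.74% and 8.75% of all regions. The STAT sequence TTCNNNGAA was in 17.3% against 18.8%, and 17.1% against 16%, with 15.8% and 14.4% of all regions. The GRHL sequence AACCNGTT was in under 5% (3.48% and 3.6% of all regions) and the CREB sequence TGACGTCA in under 1% of the risen and unchanged regions (0.573% and 0.668% of all). The NF-kB consensus was in 5.44% against 4.36% in 10A and 5.35% against 6.07% in DCIS, with 7.71% and 8.59% of all regions. The TEAD sequence, at 6 letters, is short enough to occur often in any 500 bp. A match is no evidence that a factor bound.

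By chromosome, the share of intron-only regions that rose in 10A ran from 20.4% of 309 on chromosome 18, where 37.9% of all regions rose, to 42.9% of 154 on chromosome 21, where 48.4% of all regions rose. In DCIS it ran from 19.7% of 289 on chromosome 13, where 19.9% of all regions rose, to 42.8% of 645 on chromosome 3, where 33.1% of all regions rose. Chromosome 3 also held the highest median in DCIS, 1.05, beside 0.74 over all intron-only regions.

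The width limit left out wider intronic regions, which rose more often: 781 of the 1049 intron-only regions at or over 3000 bp in 10A (74.5%) and 284 of 798 in DCIS (35.6%). In DCIS they also fell more often, with 89 losses (11.2%) against 5.16%. Just inside the limit, at 2900 bp, AK4 had a log2 fold change of 0.90 in 10A, and OSBPL9 -1.92 and C1orf112 2.05 in DCIS. Just outside, at 3000 bp, CAMTA1 had 1.16 and PEX14 0.84 in 10A, and ECE1 -0.73 and GRHL3 -1.08 in DCIS.

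As a check of the labelled cell type, the genes named by regions enriched over input in shCTRL cells were read for markers. Of 8 basal mammary markers, 6 were named in 10A and 7 in DCIS, with KRT5, TP63, ITGA6, EGFR, CDH3 and LAMB3 in both, KRT17 in DCIS only and KRT14 in neither. Of 4 markers each, the luminal list had ESR1 and GATA3 in both lines, the leukocyte list SPI1, the endothelial list PECAM1, and the fibroblast list PDGFRA in 10A and none in DCIS. A region anywhere in a gene counts here, so a named marker is not shown to be expressed.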

How the data were processed

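The data were 6 deposited tables of H3K27ac regions, of which 2 compare the hairpins within a line and the others compare 1 immunoprecipitated group with its input. Alignment to GRCh38 used BWA and Rsubread, SAMtools served for sorting and deduplication, and csaw gave the differential windows, by the authors' account. All values used are the authors' own comparisons, taken as deposited. The normalization, window filter, merging distance and prior count are not given in the sources used here. The deposited p-value and FDR of a region combine its windows, and the deposited log2 fold change is that of 1 representative window. Numbers of windows are not reads. These tables hold no value per library, so depth and replicate spread are unknown, and it is not stated that the 3 libraries of a group came from separate infections. Chromosome names and region ends were checked against hg38, on which all 24 chromosomes matched and 0 regions ran past an end.

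Regions were counted at FDR under 0.05 by the deposited direction, over the whole table. No test was added, since regions are not replicates. Overlap was at least 1 bp, and enrichment over input meant FDR under 0.05 and direction up. TSSs were those of basic protein-coding transcripts, and intron numbers those of canonical transcripts, in GENCODE release 44. Motifs were searched on both strands in 500 bp at the midpoint. The intervals are Wilson intervals at 95%. Named regions were, in each line and direction, the 5 with the largest absolute log2 fold change among called regions of at least 5 windows, the 5 pairs up in both lines by the smaller fold change, the 5 hosts with most gains and most losses, ANKRD11, and up to 4 genes per group and line by lowest FDR. Other hosts' values in a second line, and counts of single genes, were chosen after their values were seen. The members, groups and markers were chosen with earlier results of these data known. Python 3.11.15, pandas 2.3.3, numpy 2.4.6 and matplotlib 3.10.9 were used. Functions for classes, overlaps, intervals and motifs were tested on simulated data. A few regions that these rules name are not reported here.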

Additional observations from a re-analysis of the deposited data

How the results depend on the processing

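Of 54 alternative values for 9 results, 33 stayed within 1.5 times the count or within the counting interval of the share, and 21 did not. Losses at least 1 log2 unit below the median of all regions were among the 33, but could not change under that rule. FDR under 0.01 left 2225 gains and 7 losses in 10A and 297 losses in DCIS, and FDR under 0.1 gave 71 losses in 10A. At least 5 windows left 23 losses in 10A, and 1654 gains and 329 losses in DCIS. At least 1 log2 unit above the median of all regions left 165 gains in 10A. The share of gains over shANCO1 enrichment went from 52.1% to 23.2% in 10A and from 24.6% to 5.83% in DCIS with at least 50% of the region covered, to 39.1% and 21.8% with an enrichment FDR under 1e-10, and to 62.8% and 28.1% for gains at FDR under 0.01. The AP-1 share of gains was 11.8% and 11% in 200 bp, against 7.53% and 7.35% of unchanged regions, and 48.6% and 50.4% in 1000 bp, against 40.7% and 34.1%. It was 25.5% for gains in 10A at least 1 log2 unit above the median. Regions up in both lines numbered 403 with 50% mutual overlap and 370 at FDR under 0.01. The smaller counts under a stricter threshold follow from its construction. No paired analysis was possible because the tables hold no value per library, and leaving out a replicate was not run for the same reason. The number of reads behind a region was unknown, so no interval for a fold change can be given.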

Other observations

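Intron-only regions often lay close to another tested region. In 10A, 4642 of them (35.1%) had another region of the same table within 1 kb, and 29.9% of these rose, against 32.3% of those with none. In DCIS, 3987 (38.4%) had one, of which 26.6% rose and 6.3% fell, against 32.5% and 4.46% of the remaining 6394.

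Among hosts with at least 2 regions naming 1 gene, every region rose in 132 of 2273 genes in 10A and in 204 of 1874 in DCIS, while none rose in 738 and 758. Both gains and losses were found in 9 genes in 10A and in 102 in DCIS.

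At NRG1, a region that fell in 10A (chr8:32309201-32310800, log2 fold change -1.15, FDR = 0.0192) overlapped one that rose in DCIS (chr8:32309401-32310800, 2.83, FDR = 4.3e-07). It was 1 of 5 pairs that fell in 10A and rose in DCIS, and was picked after its values were seen.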
